A study of Mus musculus with 5 samples.

Results

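The small intestine absorbs dietary protein as small peptides and free amino acids, and this report describes the mouse genes that carry out that uptake. The 10 genes were listed by name and not by a limit on their values. Earlier results of these data were known when the list was chosen. The genes are Slc15a1, Slc6a19, Slc6a20a, Slc6a18, Slc7a9, Slc3a1, Slc7a7, Slc7a8, Slc1a1 and Slc15a4. All 10 were present among the 22042 genes of the bulk table and the 27998 genes of the droplet library.

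As background, peptidases on the brush border cut luminal protein to short peptides and amino acids. The proton-coupled carrier PEPT1, encoded by Slc15a1, takes up di- and tripeptides at the apical membrane. B0AT1 (Slc6a19) is the main apical carrier of neutral amino acids, SIT1 (Slc6a20a) prefers proline, and the heterodimer of b0,+AT (Slc7a9) and rBAT (Slc3a1) exchanges cystine and cationic amino acids. Basolateral exit uses y+LAT1 (Slc7a7) and LAT2 (Slc7a8). Absorptive enterocytes are the classical site of this system, and some of the same carriers have been studied as nutrient sensors in enteroendocrine cells (EECs), the hormone-secreting cells of the epithelium.

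Expression was measured in sorted small intestinal epithelial cells of C57Bl/6J mice. For bulk RNA-seq, Cck-Cre; R26-LSL-tdTomato mice aged 6 to 8 weeks were fasted (3 mice, A, B and F) or were given Ensure, a liquid diet, after the fast (3 mice, C, D and E). The tdTomato-positive (CCK+) and tdTomato-negative (CCK-) cells of each mouse gave 1 library each, so the 12 libraries form 4 groups of 3. For droplet sequencing, tdTomato-positive cells of 4 Neurog3-Cre; R26-LSL-tdTomato mice aged 6 weeks, given no treatment, were pooled into 1 library. In both lines the Cre driver marks a lineage permanently, so a labelled cell once expressed the driver or descends from a cell that did, and Cck-Cre is also active outside the epithelium.

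The sample titles name all 4 bulk groups CCK+, but their cell type field and the deposited table distinguish CCK+ from CCK-. The level of Cck followed the cell type labels, with 14837 to 32592 normalized counts in the 6 CCK+ libraries and 27.6 to 86.0 in the 6 CCK- libraries. Enterocyte RNA was abundant in both sorts: the summed level of 9 enterocyte markers was 183895 to 307263 in fasted CCK+, 124137 to 202228 in refed CCK+, 294149 to 432757 in fasted CCK- and 301904 to 321450 in refed CCK- libraries. The summed level of 11 EEC markers was 86397 to 184193 in fasted and 221332 to 285943 in refed CCK+ libraries, against 1539 to 3013 in CCK-. Markers of immune cells also differed, at 4233 to 9948 in CCK+ and 457 to 1089 in CCK- libraries over 8 genes. In bulk samples fewer cells of a type and less RNA per cell cannot be told apart.

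The genes lie on 7 chromosomes (GENCODE vM21, GRCm38). Slc15a1 spans chr14:121459621-121505252, with Slc7a7 (chr14:54369442-54417780) and Slc7a8 (chr14:54722209-54781946) on the same chromosome and strand. Slc6a18 (chr13:73661752-73678023) and Slc6a19 (chr13:73679745-73704865) are neighbors on the minus strand, with 1721 bases between them. The other genes are Slc15a4 (chr5:127595664-127632897), Slc7a9 (chr7:35448796-35466036), Slc6a20a (chr9:123634770-123678885), Slc3a1 (chr17:85028376-85064236) and Slc1a1 (chr19:28835049-28913960). Exons of Slc3a1 overlap those of Prepl on the other strand, exons of Slc7a7 overlap Oxa1l, exons of Slc6a20a overlap Ccr9, exons of Slc1a1 overlap 4430402I18Rik and exons of Slc15a4 overlap Gm43474. The strand setting of the bulk counting is not given in the sources used here, so bulk reads of these pairs cannot be told apart. Slc6a20a and its paralog Slc6a20b may likewise share reads.

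Promoters were read for 9 genes from RefSeq (GRCm38.p6). Those of Slc15a1 and Slc3a1 are shown, a choice made after their values were seen, because both genes were read in Cck-high cells of the droplet library and differed on refeeding: Slc15a1 passed the test as lower and Slc3a1 did not pass. Each run holds the 250 bases before the start of the gene, 5′ to 3′ on the coding strand, at chr14:121505255-121505504 (minus strand) for Slc15a1 and chr17:85028097-85028346 (plus strand) for Slc3a1. Capitals mark CAAAGT, the core of the sequence that HNF4 factors of enterocytes are known to bind, searched on both strands.
Slc15a1: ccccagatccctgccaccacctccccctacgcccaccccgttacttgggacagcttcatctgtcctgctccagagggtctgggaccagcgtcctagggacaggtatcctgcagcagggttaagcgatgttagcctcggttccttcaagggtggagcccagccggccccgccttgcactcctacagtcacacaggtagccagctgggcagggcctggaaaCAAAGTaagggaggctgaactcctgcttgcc
Slc3a1: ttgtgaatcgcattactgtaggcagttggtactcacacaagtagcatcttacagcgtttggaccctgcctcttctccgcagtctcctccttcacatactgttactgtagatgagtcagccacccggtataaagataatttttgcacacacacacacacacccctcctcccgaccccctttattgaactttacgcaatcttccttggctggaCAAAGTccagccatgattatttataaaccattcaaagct
Counted from the RefSeq start, where each run ends, the match lies 26 to 31 bases before it in Slc15a1 and 34 to 39 in Slc3a1. The GENCODE starts given above lie further downstream, at chr14:121505252 for Slc15a1 and chr17:85028376 for Slc3a1. It occurred in 3 of the 9 genes, the other being Slc7a7, and in 12.6% of all 32851 promoters. GTTAAT, a core of the sequence that HNF1 factors bind, occurred in Slc6a20a and Slc7a7 and in 6.43% of all promoters. These matches are descriptions of the letters and were not tested as binding sites.

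Refeeding was compared with fasting first within the CCK+ sort. Apical carriers of peptides and neutral amino acids were lower in refed than in fasted mice, and the fold change was largest for Slc6a18 and Slc6a20a. In total 7 of the 10 genes passed an adjusted p of 0.05 in limma over all genes, 6 lower and 1 higher, where 2.55% of all genes passed, 1.23% as lower and 1.31% as higher. The 3 fasted and 3 refed libraries did not overlap for 8 of the 10 genes, against 19.4% of all genes. The median log2 fold change was -1.02 over the 10 genes and 0.01 over all genes. The number of calls depended on the fit, since none of the 10 genes passed when the 6 CCK+ libraries were fitted alone and between 1 and 6 passed when 1 of the 12 libraries was left out. The lowest counts were 1 without mouse B or mouse D and 3 without mouse F or mouse E in the CCK+ sort.

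Slc15a1, the peptide carrier, had 4698, 8010 and 6620 normalized counts in the CCK+ libraries of fasted mice A, B and F. The refed mice C, D and E had 2825, 2154 and 2028. All refed libraries were below all fasted ones, and the log2 fold change was -1.44 ± 0.20 (SE, limma, adjusted p = 0.00363), a level 2.72-fold lower on the log2(count + 1) scale. The call held in 18 of 19 alternatives.

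Slc6a19, the apical neutral amino acid carrier, had 5194, 10031 and 7744 normalized counts in fasted and 4044, 2151 and 2119 in refed CCK+ libraries. The fasted mouse B was the highest and the groups did not overlap. The log2 fold change was -1.48 ± 0.26 (SE, limma, adjusted p = 0.00970). The ratio of Slc6a19 to Slc15a1 counts ran from 1.11 to 1.25 in fasted and from 0.999 to 1.43 in refed CCK+ libraries.

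Slc6a20a, the proline carrier, had 1607, 1826 and 1524 normalized counts in fasted CCK+ libraries. It had 792, 467 and 245 in refed ones. The refed libraries were all lower and spread more widely among themselves, with a log2 fold change of -1.87 ± 0.30 (SE, limma, adjusted p = 0.00664).

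Slc6a18, a neutral amino acid carrier best known from kidney, was low in every library. It had 71.4, 222 and 60.6 normalized counts in fasted and 4.40, 4.91 and 26.0 in refed CCK+ libraries. The groups did not overlap, and the log2 fold change was -3.39 ± 0.65 (SE, limma, adjusted p = 0.0149). The call was lost in 5 of 19 alternatives for Slc6a18, in 4 for Slc6a20a and in 6 each for Slc6a19, Slc7a9 and Slc7a8.

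Of the subunits of the cystine exchanger the light chain alone passed. Slc7a9, its light chain, had 655, 964 and 875 normalized counts in fasted and 538, 294 and 390 in refed CCK+ libraries, with a log2 fold change of -1.05 ± 0.21 (SE, limma, adjusted p = 0.0168). Slc3a1, its heavy chain, had 633, 607 and 1038 in fasted and 1040, 875 and 746 in refed libraries. The Slc3a1 groups overlapped, and the log2 fold change of 0.26 ± 0.22 did not pass (SE, limma, adjusted p = 0.606, 95% interval -0.21 to 0.73). The ratio of Slc3a1 to Slc7a9 counts was 0.630 to 1.19 in fasted and 1.91 to 2.97 in refed CCK+ libraries. The same ratio was 0.945 to 1.10 in fasted and 1.41 to 2.04 in refed CCK- libraries, so the states did not overlap in either sort. Prepl, whose exons overlap Slc3a1, had 407 to 576 normalized counts in fasted and 631 to 684 in refed CCK+ libraries. In CCK- libraries it had 525 to 673 and 562 to 754. Its part in the Slc3a1 counts and the ratio was not tested.

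The basolateral exchangers also differed from each other. Slc7a8, which exchanges neutral amino acids, had 2790, 3598 and 3487 normalized counts in fasted and 2281, 1617 and 1238 in refed CCK+ libraries, with a log2 fold change of -0.98 ± 0.19 (SE, limma, adjusted p = 0.0167). Slc7a7, which exports cationic amino acids, had 1142, 2011 and 1577 in fasted and 1513, 1278 and 930 in refed libraries. Its groups overlapped, and its log2 fold change of -0.34 ± 0.21 did not pass (SE, limma, adjusted p = 0.445, 95% interval -0.78 to 0.11).

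Slc1a1, a carrier of glutamate and aspartate, had 161, 181 and 80.8 normalized counts in fasted and 220, 228 and 188 in refed CCK+ libraries. All refed values were above all fasted ones, but the log2 fold change of 0.66 ± 0.26 did not pass (SE, limma, adjusted p = 0.214). Slc15a4, an endolysosomal carrier of histidine and peptides, had 38.6, 34.2 and 28.9 in fasted and 51.6, 453 and 282 in refed CCK+ libraries. The refed mice D and E were far above mouse C, and the log2 fold change was 2.45 ± 0.58 (SE, limma, adjusted p = 0.0404). This call was lost in 14 of 19 alternatives, including each of the 6 that left out a CCK- library and those that left out mouse D (adjusted p = 0.225) or mouse E (adjusted p = 0.212), with a range from 0.00533 to 0.287.

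**Figure D1:**
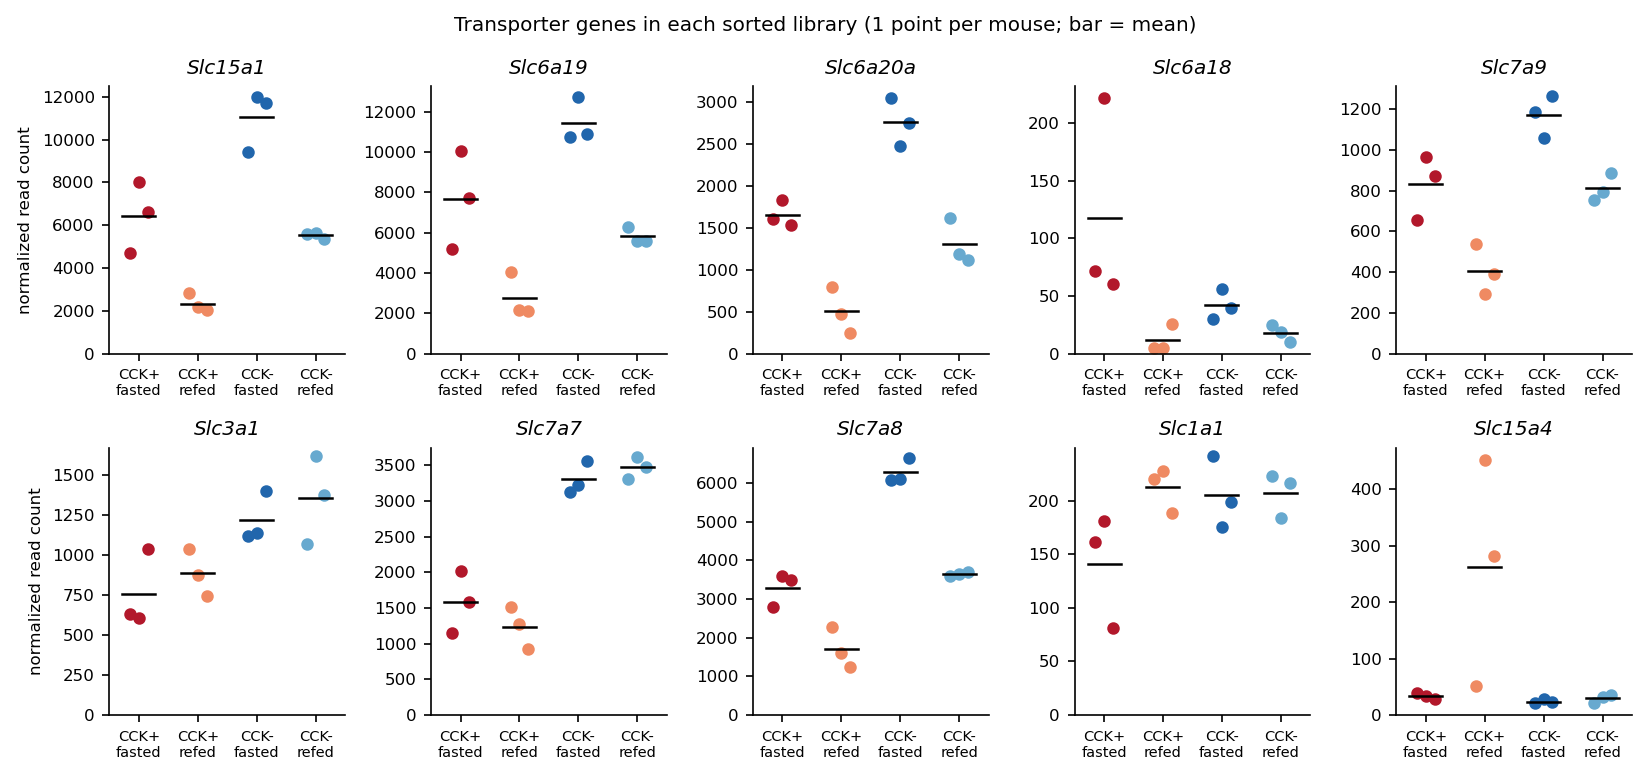
Normalized read count (vertical axis, linear, starting at 0) of the 10 genes in the 4 groups (horizontal axis), with 1 point per mouse and a bar at the group mean. In both sorts the refed points of Slc15a1, Slc6a19, Slc6a20a, Slc7a9 and Slc7a8 sit below all fasted points, whereas those of Slc3a1 and Slc7a7 overlap.

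The CCK- sort, whose EEC marker sum was far lower, showed smaller differences in the same genes. Slc15a1 alone of the 10 passed, 1.23% of all genes passing in this comparison, 0.526% as lower and 0.708% as higher. The fasted and refed libraries did not overlap for 6 of the 10 genes, against 16.2% of all genes. Slc15a1 had 9425, 12005 and 11725 normalized counts in fasted and 5579, 5654 and 5346 in refed CCK- libraries, with a log2 fold change of -0.99 ± 0.20 (SE, limma, adjusted p = 0.0287). That call was lost in 12 of 19 alternatives, over which the adjusted p ranged from 0.00742 to 0.140.

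Slc6a19 had 10763, 12749 and 10894 normalized counts in fasted and 6280, 5603 and 5607 in refed CCK- libraries. Its log2 fold change of -0.97 ± 0.26 did not pass (SE, limma, adjusted p = 0.0948). Slc6a20a had 3045, 2468 and 2743 in fasted and 1611, 1179 and 1110 in refed libraries, with a log2 fold change of -1.10 ± 0.30 (SE, limma, adjusted p = 0.111). For both genes the states were separate in the CCK- sort, although the fold did not pass over all genes.

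Slc7a8 had 6090, 6109 and 6650 normalized counts in fasted and 3598, 3641 and 3693 in refed CCK- libraries. The spread within each state was small beside the gap between them, and the log2 fold change was -0.78 ± 0.19 (SE, limma, adjusted p = 0.0682). Slc7a9 had 1187, 1062 and 1267 in fasted and 755, 796 and 888 in refed libraries, with a log2 fold change of -0.53 ± 0.21 (SE, limma, adjusted p = 0.304). Slc6a18, with 29.6, 56.5 and 39.8 in fasted and 25.2, 18.5 and 9.63 in refed libraries, was the sixth gene whose states did not overlap.

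Slc7a7 was level in the CCK- sort, with 3123, 3224 and 3564 normalized counts in fasted and 3313, 3614 and 3478 in refed libraries. The 95% interval of its log2 fold change ran from -0.37 to 0.51. Slc3a1 had 1121, 1138 and 1399 in fasted and 1066, 1621 and 1378 in refed libraries, with an interval from -0.33 to 0.61. Slc1a1 lay between 176 and 241 and Slc15a4 between 20.6 and 35.1 over the 6 CCK- libraries, and the states of each gene overlapped.

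The size of the refeeding difference was then compared between the sorts. None of the 10 genes passed the limma test of that difference, and 0.00454% of all genes did. At an unadjusted p under 0.05 in limma 2 of the 10 genes passed, Slc15a4 (adjusted p = 0.739) and Slc6a18 (adjusted p = 0.775), against 6.25% of all genes. For Slc15a1 the difference of log2 fold changes was -0.45 (95% interval -1.06 to 0.15), and for Slc6a19 it was -0.51 (95% interval -1.30 to 0.28). The folds in the CCK+ and CCK- sorts were therefore not shown to differ.

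**Figure D2:**
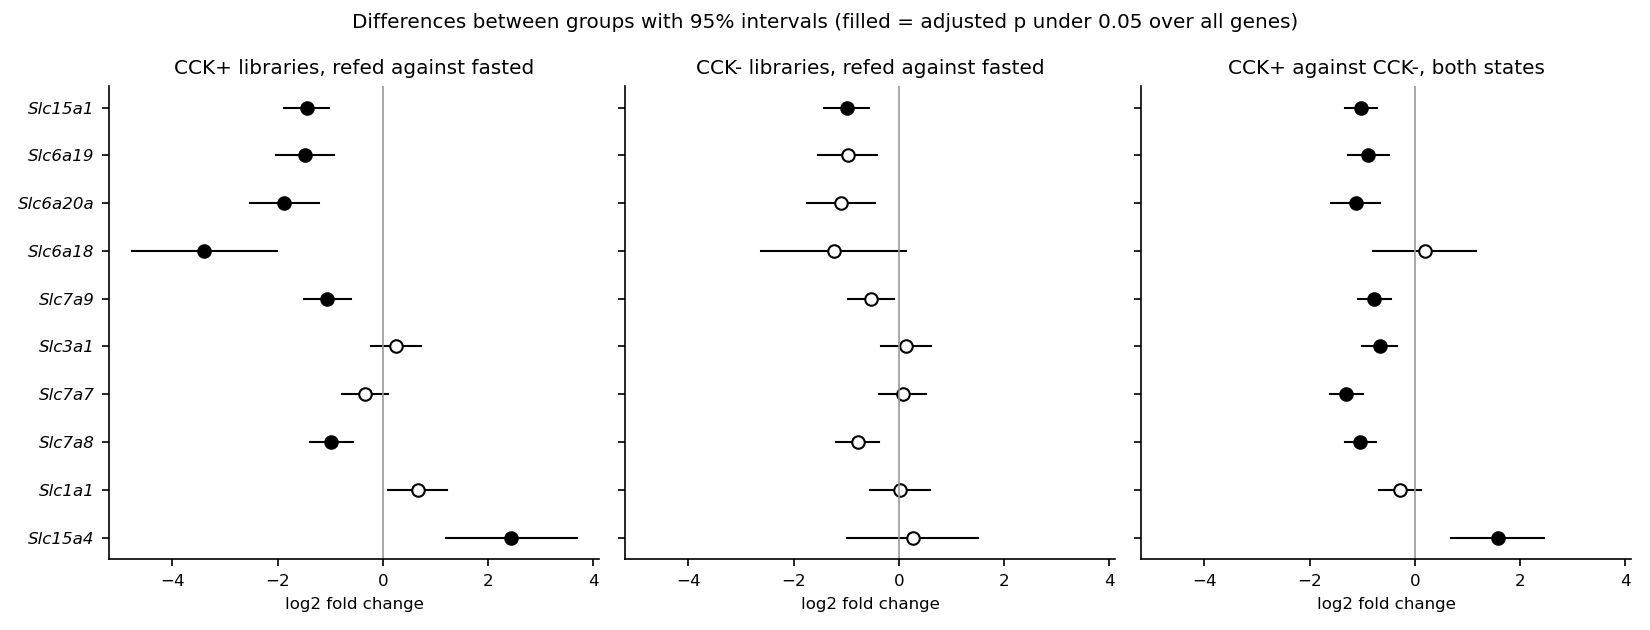
Log2 fold change (horizontal axis) with its 95% interval for each gene (vertical axis) in 3 comparisons, with filled points where the adjusted p was under 0.05. Refeeding folds lie below 0 for Slc15a1, Slc6a19, Slc6a20a, Slc6a18, Slc7a9 and Slc7a8 in both sorts, and intervals of Slc3a1 and Slc7a7 cross 0 in both.

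Both libraries of a mouse were also averaged on the log2 scale and 3 fasted mice were compared with 3 refed mice, a comparison chosen after seeing the data. On these means 6 of the 10 genes were lower and none was higher, 2.62% of all genes passing, 1.27% as lower and 1.35% as higher. They were Slc15a1 (log2 fold change -1.22 ± 0.17, adjusted p = 0.00793), Slc6a20a (-1.48 ± 0.23, adjusted p = 0.0118), Slc6a19 (-1.23 ± 0.20, adjusted p = 0.0151), Slc7a8 (-0.88 ± 0.15, adjusted p = 0.0162), Slc6a18 (-2.32 ± 0.39, adjusted p = 0.0185) and Slc7a9 (-0.79 ± 0.14, adjusted p = 0.0225), all SE and limma. Slc15a4 did not pass here (adjusted p = 0.135, limma). Without any 1 of the 6 mice none of the 10 genes passed.

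The summed EEC markers moved with refeeding in the CCK+ sort, where the fasted (86397 to 184193) and refed (221332 to 285943) sums did not overlap although none of the 11 genes passed, and their part in the result was not tested. The enterocyte marker sums overlapped between the states. Of 9 enterocyte markers, 1 passed in CCK+ (Lct, lower; median log2 fold change of the list -0.43, Fabp1 0.32) and none passed in CCK-. Relative to 1000 summed counts of those 9 markers, Slc15a1 was 25.5 to 30.5 in fasted and 14.0 to 16.3 in refed CCK+ libraries. In CCK- libraries it was 27.7 to 39.9 in fasted and 17.4 to 18.1 in refed mice. Slc6a19 was likewise 28.2 to 35.7 against 15.5 to 19.997 in CCK+ and 29.5 to 37.0 against 17.9 to 19.5 in CCK-. Fasted and refed values thus stayed separate for both genes on this scale, and the CCK+ and CCK- values of fasted mice overlapped.

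Slc6a20a was also separate by state on this scale, at 5.94 to 8.74 against 1.97 to 3.92 in CCK+ and 5.70 to 9.40 against 3.68 to 5.01 in CCK-. Slc7a9 met at the edge in CCK+, at 3.14 to 4.03 in fasted and 2.12 to 3.14 in refed libraries, and overlapped in CCK-, at 2.45 to 4.31 and 2.35 to 2.94. Slc3a1 went the other way in the CCK+ sort, at 1.98 to 4.78 in fasted and 5.14 to 6.32 in refed libraries. So did Slc7a7 (6.21 to 7.27 against 7.48 to 9.23), Slc1a1 (0.372 to 0.875 against 1.09 to 1.65) and Slc15a4 (0.111 to 0.210 against 0.255 to 3.27). The marker sum had a median of 217044 in fasted and 138462 in refed CCK+ libraries, and its part in these rises was not tested. The proliferation marker Mki67, found in crypt cells, was higher in refed mice in both sorts (652 to 1027 against 1334 to 1581 in CCK+ and 365 to 624 against 807 to 1058 in CCK-), and its part in the result was not tested.

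**Figure D3:**
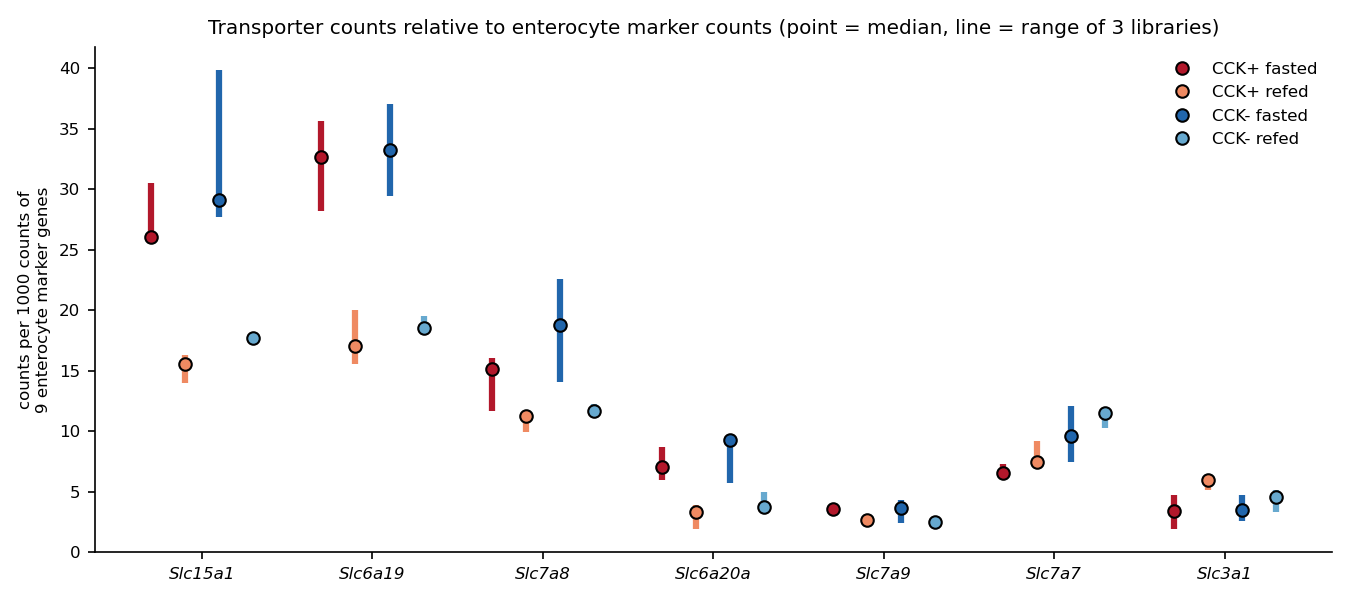
Counts of 7 genes per 1000 counts of the 9 enterocyte markers (vertical axis, linear) in the 4 groups, with the median as a point and the range of 3 libraries as a line. For Slc15a1 the fasted ranges of CCK+ (25.5 to 30.5) and CCK- (27.7 to 39.9) overlap and both lie above the refed ranges.

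The CCK+ and CCK- sorts were compared over both states. Carriers of the absorptive system were lower in CCK+ cells, 7 of the 10 genes passing as lower and Slc15a4 as higher, where 33.7% of all genes passed, 19.6% as higher and 14.1% as lower. The groups did not overlap for Slc3a1 and Slc7a7 alone, against 15.7% of all genes. The median log2 fold change was -0.83 over the 10 genes and 0.09 over all genes. Among the genes lower in CCK+, Slc7a7 showed the largest difference, with a log2 fold change of -1.31 ± 0.15 (SE, limma, adjusted p = 8.66e-06). In each of the 6 mice its CCK+ library was lower, at 0.267 to 0.624 of the CCK- count.

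Slc6a20a (log2 fold change -1.12 ± 0.22, adjusted p = 0.000897), Slc7a8 (-1.04 ± 0.14, adjusted p = 3.61e-05) and Slc15a1 (-1.03 ± 0.14, adjusted p = 5.41e-05) followed, all SE and limma. The CCK+ count of Slc15a1 was 0.379 to 0.667 of the CCK- count of the same mouse. Slc6a19 (log2 fold change -0.88 ± 0.18), Slc7a9 (-0.77 ± 0.15) and Slc3a1 (-0.66 ± 0.16) were lower in 6 of 6 mice as well. The enterocyte marker list moved with this comparison, 7 of its 9 genes being lower in CCK+ with a median log2 fold change of -1.01, and its part in the result was not tested.

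Slc15a4 was higher in the CCK+ library of all 6 mice, from 1.21-fold in mouse B to 14.1-fold in mouse D (log2 fold change 1.58 ± 0.41, SE, limma, adjusted p = 0.00793). It did not pass in fasted libraries alone (adjusted p = 0.282) or in refed libraries alone (adjusted p = 0.0837), with a range from 8.65e-05 to 0.282 over all alternatives. Slc6a18 (0.19 ± 0.46, 95% interval -0.79 to 1.17) and Slc1a1 (-0.29 ± 0.19, 95% interval -0.69 to 0.11) did not pass. In fasted libraries alone 3 of the 10 genes passed, and in refed libraries alone 5 did, all lower in CCK+. The share of all genes passing in these smaller fits is not given here, so the counts cannot be set against it. Scaling every library to the same sum moved the median of all genes by 0.377 on the log2 scale and the share of higher calls from 58.2% to 84.1%, and Slc3a1 then lost its call (log2 fold change -0.26, adjusted p = 0.246).

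The other genes of protein uptake were read from a list of 44. Between CCK+ and CCK-, 30 of the 44 passed, 12 higher and 18 lower, against 33.7% of all genes and 47.1% of genes with a mean of at least 10 normalized counts, with a median log2 fold change of -0.13 over the list. All 10 peptidases of the list were lower in CCK+, with a median log2 fold change of -1.10. Examples are Dpp4, which removes dipeptides (-1.40 ± 0.15), the meprin subunits Mep1a (-1.37 ± 0.14) and Mep1b (-1.33 ± 0.14), Pepd (-1.22 ± 0.15) and Enpep (-1.16 ± 0.15). Slc25a15, the mitochondrial ornithine carrier (-1.09 ± 0.12), and Slc6a15 (-2.26 ± 0.57, at most 29.0 counts) were also lower.

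Among the 31 other transporters 11 were higher and 6 lower in CCK+, a share of 54.8% that lies near the 47.1% of genes with a mean of at least 10. The largest rises of the whole list were in genes of low count. The highest was Cltrn, the partner of amino acid carriers in kidney, which is listed apart from the 31 transporters. Cltrn had 20.015 to 68.5 normalized counts in CCK+ and 0 to 1.91 in CCK- libraries (log2 fold change 4.60 ± 0.40, SE, limma, adjusted p = 7.83e-07). Slc7a6 had 15.4 to 110 in CCK+ and 1.59 to 8.72 in CCK- libraries (3.27 ± 0.39). Slc38a3 (3.44 ± 0.52), Slc1a2 (3.31 ± 0.96), Slc43a1 (2.97 ± 0.56), Slc36a4 (1.45 ± 0.41) and Slc6a9 (1.45 ± 0.53) were also higher. Slc1a2 reached 360 in mouse F and stayed at or below 45.8 in the other CCK+ libraries. Slc7a5, the light chain of LAT1, was 39.5 to 74.6 in 5 CCK+ libraries and 1084 in mouse E, against 5.19 to 25.4 in CCK- (2.51 ± 0.61).

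On refeeding 6 of the 44 passed in CCK+ and none passed in CCK- (2.55% and 1.23% of all genes). In CCK+ the falls were in Cndp2, a cytosolic dipeptidase (log2 fold change -1.23 ± 0.30), Dpep1, a membrane dipeptidase (-0.96 ± 0.22), Slc16a10, the aromatic amino acid carrier TAT1 (-0.94 ± 0.18), Slc43a2 (-0.81 ± 0.19) and Slc6a20b (-0.77 ± 0.18), all SE. Slc16a10 had 3019, 4448 and 4035 normalized counts in fasted and 2423, 1860 and 1695 in refed CCK+ libraries. Slc38a1, a sodium-coupled glutamine carrier, was the single rise, from 480 to 979 in fasted to 1086 to 1586 in refed libraries (log2 fold change 1.04 ± 0.25, SE, limma, adjusted p = 0.0410). This count ran from 0 (without CCK+ mouse B, F, D or E) to 9 (without CCK+ mouse A) when 1 library was left out, being 1 or 2 without any 1 CCK- library, and was 0 when the CCK+ libraries were fitted alone.

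Likeness over the 12 libraries was read for 5 of the 6 genes lower on refeeding in CCK+. Pearson's r of log2 counts between pairs of Slc15a1, Slc6a19, Slc6a20a, Slc7a9 and Slc7a8 was 0.906 to 0.981 over 10 pairs, given as a description since the libraries share mice, sort and state and the genes were taken for falling in the same comparison. The sixth, Slc6a18, had r of 0.399 to 0.613 with these 5 genes. Slc3a1 had r of 0.276 to 0.502 with these genes. The genes most like Slc15a1 among 13517 genes were Ptpre (r = 0.990), Gk5 and Cobl, an actin nucleator of the brush border. Those most like Slc6a19 were Slc26a6, a brush-border anion exchanger (r = 0.992), Stk10 and Cobl. Slc6a20a was most like Slc28a1, a nucleoside carrier (r = 0.977), Abhd4 and Slc16a9, and Slc7a9 was most like Clcn2 (r = 0.985), Rai14 and Asap2.

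For Slc7a7 the most alike genes were Slc25a15 (r = 0.989), Mme, the peptidase neprilysin, and H2-Q1. For Slc7a8 they were Clec2h (r = 0.988), Sectm1b and Cyp2b10, and for Slc3a1 they included Sel1l3 (r = 0.948) and Nat8f4. Slc1a1 was nearest to Tcaim (r = 0.895), Hdhd2 and Hps6. Slc15a4, whose r with Slc15a1 was -0.835, was nearest to Zbtb38 (r = 0.963), Atrx and Tmem200a, and Slc6a18 to ENSMUSG00000114359 (r = 0.907), Vmn2r26 and Rbl2.

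The droplet library was used to ask which cells of the Neurog3 lineage carried these transcripts. Of 475960 barcodes with a UMI, 9451 cells had more than 1000 genes and under 10% mitochondrial UMIs. No cell calling step came before these filters. The paper kept fewer cells with the same limits, so some barcodes counted here as cells were not cells there. By UMIs per 10000 the cells were placed in order as Cck-high (Cck at least 500, 1246 cells), Tph1-positive (Tph1 at least 10, 2492 cells), enterocyte-marker cells (Fabp1, Rbp2, Mttp, Alpi and Reg1 together at least 100, 709 cells) and the remaining 5004 cells. The median depth was 6296, 3226, 8581 and 7235 UMIs per cell. With 1 library there is no test between groups, and all intervals are exact Poisson intervals that cover counting error only. Free RNA was read from barcodes of 1 to 100 UMIs.

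Marker lists were then read in each group. The 5 enterocyte markers, and Cck and Tph1 among the 11 EEC markers, also set the groups. Their high levels in the groups they set were fixed by the rule and are no check of the names. The 5 enterocyte markers gave 417 UMIs per 10000 in enterocyte-marker cells, 11.4 in Cck-high cells, 24.6 in Tph1-positive cells, 10.8 in the remaining cells and 39.2 in free RNA. Of the 709 enterocyte-marker cells, 170 also held tuft cell markers at or above 20 per 10000, a split chosen after seeing the data. Most remaining cells carried goblet markers, 3607 of them at 500 or more per 10000 in a split that was also chosen after seeing the data. That split first took out cells that met the Sst, Gip, Ghrl, tuft or Paneth limits. The 4 goblet markers were not limited to those cells, at 672 UMIs per 10000 in Tph1-positive, 392 in Cck-high and 378 in enterocyte-marker cells against 2060 in the remaining cells, and 587 of the 709 enterocyte-marker cells reached a goblet limit of 100. The 11 EEC markers gave 1700 in Cck-high and 493 in Tph1-positive cells, so that Tph1-positive cells held more goblet than EEC marker UMIs. Below, EEC groups is a name for the Cck-high and Tph1-positive cells by their limits alone. Enterocyte-marker cells gave 28.5 of the EEC markers. No doublet caller was run. In all 327 cells met more than 1 of the 3 limits, and 82, 316 and 148 cells lay within 0.8 to 1.25 times the Cck, Tph1 and enterocyte limit.

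Of the 10 genes 7 were highest in enterocyte-marker cells, and Slc15a1 and Slc6a19 were also read well above the remaining cells in the Cck-high and Tph1-positive groups. Slc15a1 gave 0.918 UMIs per 10000 (95% interval 0.843 to 0.998) in enterocyte-marker cells, 0.690 (0.638 to 0.745) in Tph1-positive cells and 0.498 (0.451 to 0.549) in Cck-high cells. The remaining cells gave 0.0620 (0.0547 to 0.0700), below the free RNA at 0.304 (0.232 to 0.390). The share of cells with a Slc15a1 UMI was 26.5% in Cck-high and 4.80% in the remaining cells, and 9.39% and 1.28% when every cell was thinned to 2000 UMIs.

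Slc6a19 gave 0.819 UMIs per 10000 (0.748 to 0.894) in enterocyte-marker, 0.597 (0.549 to 0.648) in Tph1-positive and 0.598 (0.546 to 0.653) in Cck-high cells. The 2 EEC groups did not differ beyond counting error. The remaining cells gave 0.108 (0.0979 to 0.118). Free RNA held 0.583 (0.482 to 0.698), as high as the EEC groups, so the level alone does not separate Cck-high cells from free RNA.

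Slc3a1, the heavy chain, was the one subunit of the cystine exchanger found at like levels in Cck-high cells (0.536, 0.487 to 0.588) and enterocyte-marker cells (0.514, 0.458 to 0.575). Tph1-positive cells gave 0.401 (0.362 to 0.443), the remaining cells 0.280 (0.264 to 0.296) and free RNA 0.344 (0.267 to 0.435), so that the Tph1-positive level lay within the free RNA interval. Its partner Slc7a9 gave 1.37 (1.28 to 1.46) in enterocyte-marker cells but 0.0656 (0.0493 to 0.0856) in Cck-high cells, below the remaining cells at 0.236. In Cck-high cells the heavy chain was thus read above free RNA and the light chain below it, at 0.324 in free RNA.

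The same counts were also set against enterocyte markers. The rule selects enterocyte-marker cells for a high level of these markers and the remaining cells for a low one. Ratios that are low in the former and raised in the latter thus follow in part from the grouping. Per 1000 UMIs of the 5 enterocyte markers, Slc15a1 stood at 43.8 in Cck-high cells, 7.75 in free RNA and 2.20 in enterocyte-marker cells. Slc6a19 stood at 52.5, 14.9 and 1.96 and Slc3a1 at 47.1, 8.76 and 1.23 in the same order. Per 1000 UMIs of the goblet mucin Muc2, Slc6a19 stood at 22.0 in Cck-high cells and 6.77 in free RNA. These ratios were higher in Cck-high cells than in free RNA for other members too, as for Slc7a7 (13.1 against 7.37) and Slc7a8 (4.81 against 2.16) per 1000 enterocyte-marker UMIs, so they do not set the 3 genes apart. In the remaining cells Slc3a1 (26.0) and Slc7a7 (26.4) also stood above free RNA. So did Slc7a9 (21.9 against 8.26), Slc6a20a (11.2 against 4.70), Slc7a8 (7.34 against 2.16), Slc1a1 and Slc15a4. Slc15a1 (5.77) and Slc6a19 (10.0) stood below it. The part of free RNA in the Cck-high levels was not tested.

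The basolateral exchangers and the proline carrier were low in EEC groups. Slc7a7 gave 1.53 UMIs per 10000 (1.43 to 1.63) in enterocyte-marker cells, 0.149 in Cck-high, 0.258 in Tph1-positive and 0.284 in the remaining cells, with 0.289 in free RNA. Slc7a8 gave 0.664 (0.6003 to 0.732) in enterocyte-marker cells and 0.0547, 0.0771 and 0.0790 in the other 3 groups. Slc6a20a gave 0.566 (0.507 to 0.629) in enterocyte-marker cells and 0.0644, 0.100 and 0.120 in the others, all below free RNA at 0.184. In those 3 groups the levels of these genes did not exceed free RNA.

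Slc1a1 was sparse, at 0.0782 (0.0575 to 0.104) in enterocyte-marker cells and 0.0243 to 0.0377 elsewhere. Slc15a4 was the one gene highest in Tph1-positive cells, at 0.0896 (0.0717 to 0.111), against 0.0482 to 0.0498 in the other 3 groups. Slc6a18 gave 1 UMI in all 9451 cells, in a Cck-high cell. In enterocyte-marker cells 0 of 709 cells held a Slc6a18 UMI, so a share of up to 0.423% with a UMI remains possible. This limits cells with a UMI at this depth and not cells that express the gene.

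**Figure D4:**
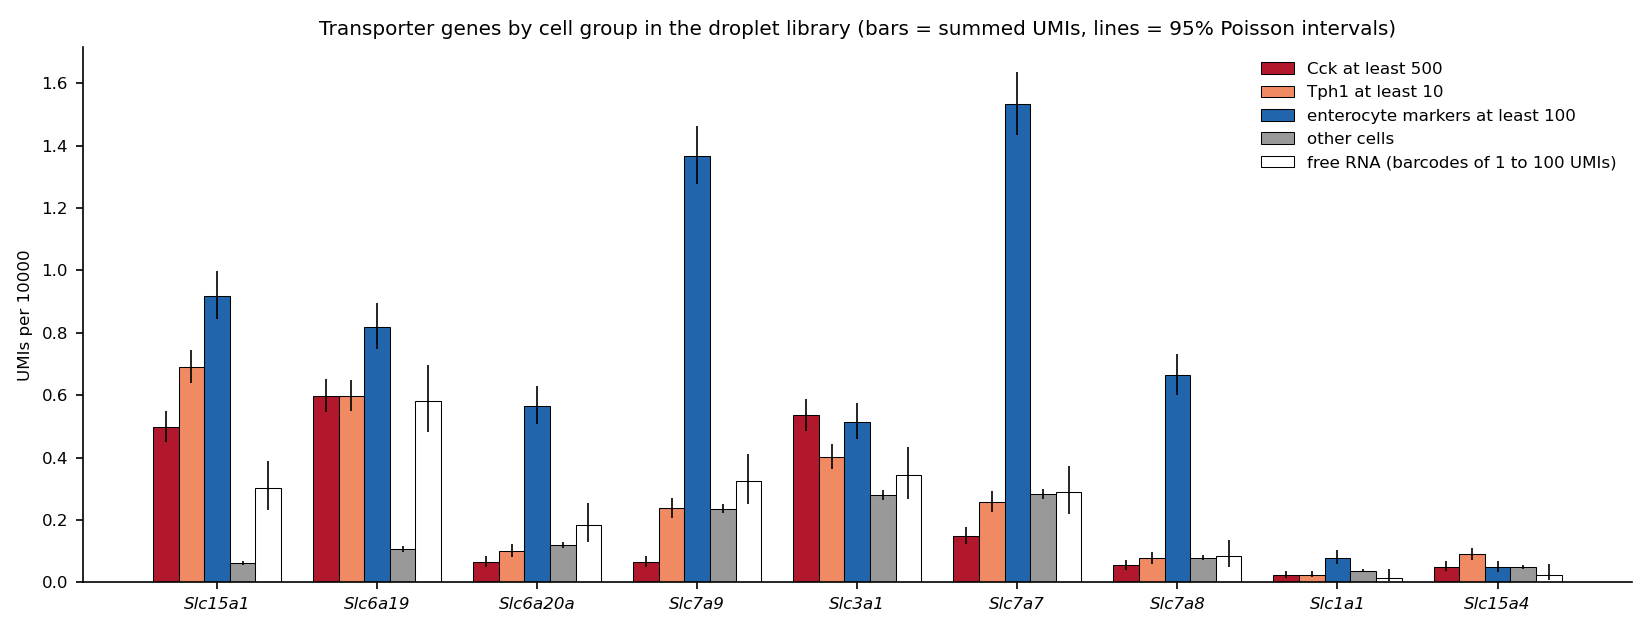
UMIs per 10000 (vertical axis, linear from 0) of 9 genes in 4 cell groups and in free RNA of the droplet library, with bars for summed UMIs and lines for exact Poisson 95% intervals. Slc7a9, Slc7a7, Slc7a8 and Slc6a20a stand high in enterocyte-marker cells alone, whereas Slc15a1, Slc6a19 and Slc3a1 reach 0.401 to 0.690 in the EEC groups.

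Within the enterocyte-marker group most carriers were higher where the marker level was higher, Slc1a1 being the other way round (0.117, 0.0889 and 0.0415). Slc15a1 gave 0.321, 0.828 and 1.40 UMIs per 10000 in cells with 100 to 200, 200 to 500 and at least 500 marker UMIs per 10000. Slc6a20a gave 0.212, 0.453 and 0.918 and Slc7a7 gave 0.855, 1.59 and 1.90 in the same bands. In the 170 cells with tuft markers Slc15a1 was 0.0677 and Slc7a7 was 0.124. In the other 539 cells they were 1.07 and 1.78. When only cells under 5% mitochondrial UMIs were kept, Slc15a1 in enterocyte-marker cells was 0.270 and Slc6a19 was 0.440, and neither was then highest in that group, leaving 5 of the 10 genes highest there. Without the tuft-marker cells the number was 8.

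EEC subsets differed in the apical carriers. Among Cck-high cells, Slc15a1 gave 0.759 (0.650 to 0.880) in the 380 cells that also held Gcg or Pyy, the genes of L cells, 0.559 (0.455 to 0.680) in 268 cells with Tph1 and 0.326 (0.274 to 0.386) in the 598 cells with neither. Slc6a19 was higher with Gcg or Pyy, at 0.832 (0.719 to 0.959), than in cells with Tph1 (0.526, 0.425 to 0.643) or with neither (0.498, 0.432 to 0.571), the latter not differing beyond counting error. Slc3a1 gave 0.438 (0.357 to 0.532), 0.531 (0.430 to 0.649) and 0.592 (0.520 to 0.671), with intervals that overlap. Free RNA gave 0.304 (0.232 to 0.390) of Slc15a1 and 0.583 (0.482 to 0.698) of Slc6a19. Slc15a1 in cells with neither lay within that interval, as did Slc6a19 in cells with Tph1 and in cells with neither. These levels alone do not separate those subsets from free RNA.

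Among cells outside the first 3 groups, 53 cells with Sst at 500 or more per 10000 gave 1.36 UMIs per 10000 of Slc6a19 (0.974 to 1.86), 0.784 of Slc3a1 (0.497 to 1.18) and 0.647 of Slc15a1 (0.390 to 1.01). The 128 cells with Gip gave 0.869 of Slc6a19 (0.687 to 1.08) but 0.189 of Slc15a1 (0.110 to 0.303). The 134 cells with Ghrl gave 0.156 of Slc6a19 (0.0894 to 0.254) and 0.147 of Slc15a1 (0.0821 to 0.242). Slc6a19 and Slc15a1 were therefore read at different ratios in Gip and Ghrl cells. Slc3a1 gave 0.212 (0.127 to 0.331) in Gip and 0.372 (0.263 to 0.510) in Ghrl cells. Goblet-marker cells gave 0.0547 of Slc15a1 and 0.0842 of Slc6a19, but 0.347 of Slc3a1 (0.325 to 0.371). That level was like the free RNA level of Slc3a1 (0.344, 0.267 to 0.435), and the Ghrl level lay within the same interval. Slc15a1 in Gip and Ghrl cells, Slc6a19 in Ghrl cells and Slc3a1 in Gip cells lay below free RNA (0.304, 0.583 and 0.344).

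**Figure D5:**
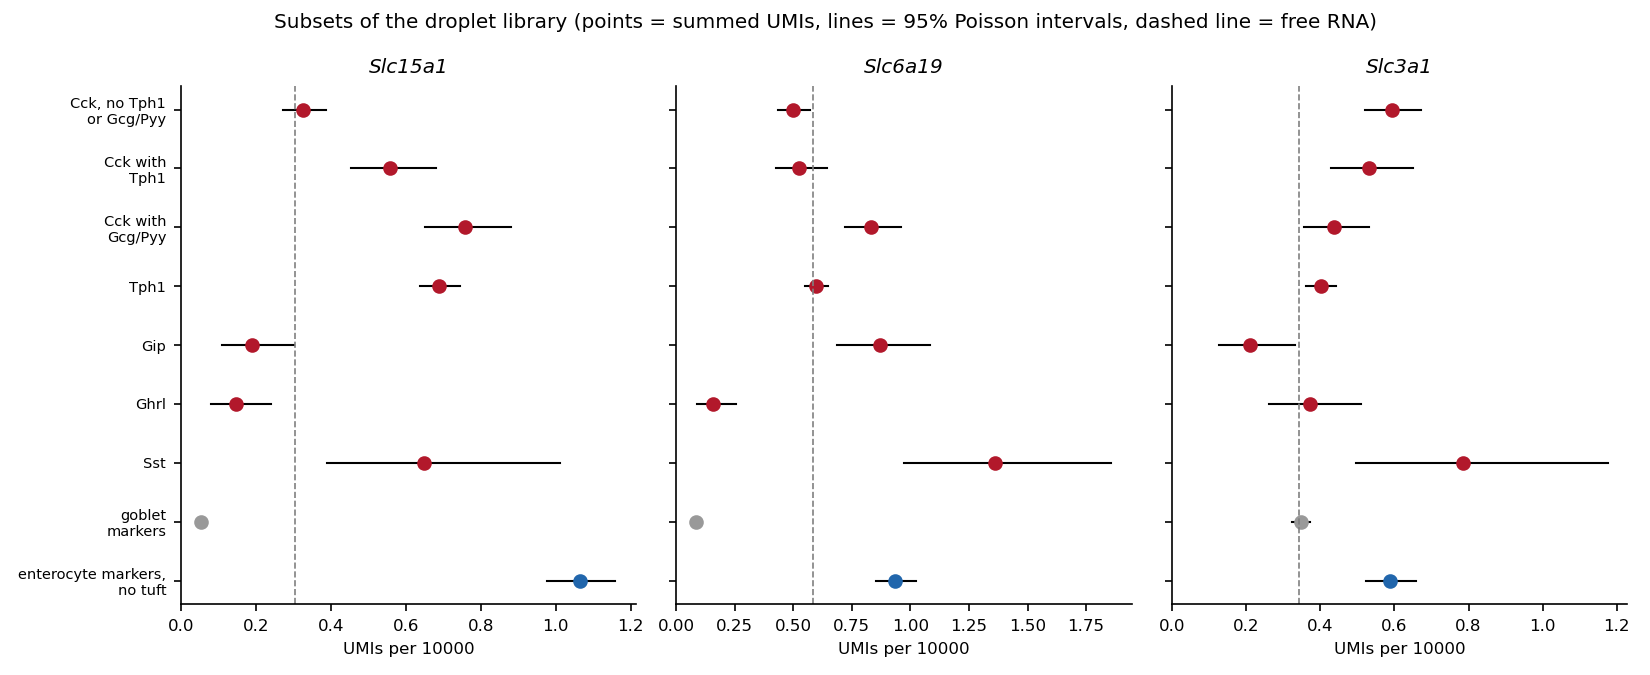
UMIs per 10000 (horizontal axis, linear from 0) of Slc15a1, Slc6a19 and Slc3a1 in 9 subsets of the droplet library, with exact Poisson 95% intervals as lines and free RNA as a dashed line. Slc6a19 is highest in the Sst subset (1.36) and lowest in the goblet-marker subset (0.0842).

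The split chosen after seeing the data left 534 cells below its Sst, Gip, Ghrl, tuft, Paneth and goblet limits. The planned split, with a goblet limit of 100 in place of 500, left 179 cells. The 534 thus include cells with goblet markers of 100 to 500 per 10000. Mki67 was 1.84 per 10000 in the 534 cells, against 0.0474 in Cck-high cells. They gave 0.192 UMIs per 10000 of Slc1a1 (0.160 to 0.228) and 0.344 of Slc7a8 (0.301 to 0.391). For Slc1a1 this was above the enterocyte-marker group, whose interval ended at 0.104. Of the other listed transporters that fell on refeeding in bulk, Slc16a10 gave 0.596 (0.545 to 0.652) in Cck-high and 0.645 (0.583 to 0.713) in enterocyte-marker cells, but 0.0928 in Tph1-positive and 0.0637 in the remaining cells, with 0.0996 in free RNA.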

How the data were processed

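The bulk table holds a normalized count signal for 22042 genes and 12 libraries. For this signal the authors trimmed reads with Trim Galore 0.6.7, quantified them with Salmon 1.6.0 (build GRCm39 per the labels), summed them per gene with tximeta and divided them by DESeq2 normalization factors. The deposited droplet file holds raw UMI counts from Cell Ranger 2.0.1 (mm10). The strand setting of the bulk counting is not given in the sources used here.

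Normalized counts were read on the scale log2(value + 1), with no filter on low values. As the values were not whole, limma 3.58.1 (R 4.3.3; trended moderation) was used in place of a count model, in 1 fit with 4 group means over all 12 libraries, with Benjamini-Hochberg adjustment over all genes and a threshold of 0.05. The 2 refeeding comparisons share this fit's error. Library sums ranged from 7061155 to 11371114 normalized counts; these are not read depths, which are unknown for the bulk libraries. Each mouse gave both sorts per the study's methods, so the libraries are paired: deviations from the group means correlated at 0.0773 to 0.124 in the 6 same-mouse pairs and at -0.0826 to -0.0184 in other pairs. Tests were run on simulated data over 22042 genes with the refed against fasted CCK+ design. They recovered 42 of 100 genes changed by 1 and 80 of 100 changed by 2 on the log2 scale. The changed genes were drawn from genes of higher count, and the simulated libraries had no mouse effect. The rates therefore do not cover genes of low count such as Slc6a18 and Slc15a4.

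Cells with more than 1000 genes and under 10% mitochondrial UMIs were kept, grouped by the limits given above, and summed. Intervals are exact Poisson (95%) and, with the limit of 3 counts for a count of 0, cover counting error only. No doublet caller was run. The droplet library is 1 sample and gives no test. The members and gene lists were chosen with earlier results of these data known. All 10 members were named, with the 3 genes most correlated with each, and from the other list of 44 genes up to 8 that passed per comparison and direction, by size of log2 fold change, with a mean of at least 10 in the higher group. Some genes that this rule names are not reported here. Alternatives covered the pseudocount, filter, trend, scaling, mouse block, sample choice, each library left out, and cell filters and limits.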

Additional observations from a re-analysis of the deposited data

How the results depend on the processing

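Of 780 alternative log2 fold values of the 10 genes, 712 kept their side of the threshold, 63 lost it and 5 gained it. None changed sign where the main or the alternative fit passed. Values that passed in neither fit could change sign and were counted as kept. Slc6a18 between the sorts, for example, ran from -0.886 to 1.26. Of 360 cell-level values 63 moved by more than their interval. The number of genes lower or higher on refeeding in CCK+, 7 of 10, was 1 without the trended prior and 0 with only the compared libraries, and 1 to 6 with 1 library left out. That of the 44 other genes, 6, was 0 and 0 under those settings and 0 to 9 with 1 library left out. In CCK-, 1 of 10 became 2 with a mean of at least 10, 2 after rescaling to equal sums, 0 without the trend, and 0 to 1 with 1 library left out. Between the sorts, 8 of 10 became 3 in fasted and 5 in refed libraries alone. Of the other list, 30 of 44 became 11 in fasted libraries alone. These fits held fewer samples, and the share of all genes passing in them is not given here. The count on mouse means, chosen after seeing the data, went from 6 to 0 without any 1 mouse (range 0 to 0). The cause of the other changes was not tested. Taking the mouse as a replicate block changed none of these counts by over 1.5 times. Rescaling moved the median of all genes by 0.377 (CCK+ against CCK-), 0.219 (refed, CCK+) and 0.0751 (refed, CCK-), and the share of higher calls from 58.2% to 84.1%, 51.5% to 77.4% and 57.4% to 63.4%. With 3 mice a state, small differences could not be detected, and bulk depth is unknown.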
